A study of Mus musculus with 39 samples.

Results

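The comparison asks how lung gene expression in mice fed 10000 ppm permethrin for 14 days differed from that in mice fed 5000 ppm permethrin for 14 days. It rests on 9 arrays of the 39 in the series, 4 at 10000 ppm and 5 at 5000 ppm, chosen by compound, dose and duration in the sample titles. All animals were female mice of the outbred stock Crlj:CD1(ICR), given the compound in powdered diet. They were bought at 9 weeks of age and were 12 weeks old in the 14-day groups. Each array carries a replicate number that the titles call biological, and each animal received a single diet. Set beside them are 5 control mice without compound for 14 days and, at 11 weeks of age, 5 mice on 10000 ppm, 5 on 5000 ppm and 5 controls for 7 days. A further 10 arrays came from mice fed 2500 ppm isoniazid for 7 or 14 days, and entered the normalization, the choice and filter of probe sets and the estimate of spread, but no comparison.

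Permethrin is a pyrethroid insecticide that keeps voltage-gated sodium channels open, and mammals clear it through carboxylesterases and P450 enzymes. Many foreign compounds and their reactive products act on KEAP1, a protein that otherwise sends the transcription factor NRF2 for breakdown. Released NRF2 pairs with small MAF proteins at antioxidant response elements in DNA and raises enzymes that make glutathione, reduce thioredoxin and quinones, and conjugate electrophiles. Club cells of the airway hold much of the lung's capacity to metabolise foreign compounds.

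After 14 days the genes that permethrin had raised over control at 7 days, many of them known NRF2 targets, lay somewhat higher at 10000 ppm, with Srxn1, Aldh3a1, Blvrb and Gsta2 about 1.5 to 1.7-fold higher by their means. No single gene separated the doses at an adjusted p of 0.05: 0 of 13020 genes tested passed, 0% of all (limma, Benjamini-Hochberg adjustment over all genes). The smallest adjusted p was 0.849. Without adjustment, 493 genes (3.79%) had a p under 0.05, of which 317 (2.43%) were higher and 176 (1.35%) lower at 10000 ppm. Signals of the 2 groups did not overlap for 91 genes higher (0.699%) and 47 lower (0.361%) at 10000 ppm. The 95% interval of the log2 difference lay within 1 log2 unit of zero for 11725 genes (90.1%), and the median standard error (SE) was 0.17. All differences below are 10000 ppm minus 5000 ppm on the log2 scale unless another order is named, signals are quantile-normalized MAS5 intensities on the linear scale, and genes named here did not pass the adjusted threshold.

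The lung label was borne out by its markers: Sftpc, Sftpb, Sftpa1, Sftpd, Scgb1a1, Cyp2f2, Ager, Cldn18 and Napsa lay at or above the 96.5th percentile of signal on all 9 arrays, and Nkx2-1 was dim. Correlations among the 9 arrays ran between 0.943 and 0.975, and no arrays were identical. RNA quality varied inside both groups. The log2 ratio of 3' to 5' Gapdh control probe sets, which rises as RNA degrades, was 0.18, 0.36, 1.26 and 0.09 at 10000 ppm and 0.59, 0.06, -0.07, 1.43 and 1.29 at 5000 ppm. Replicate 3 at 10000 ppm and replicates 4 and 5 at 5000 ppm were thus above 0.7. The means were 0.472 (SD 0.534, n = 4) at 10000 ppm and 0.660 (SD 0.688, n = 5) at 5000 ppm, and an exact permutation test, two-sided, gave p = 0.683 (smallest possible 0.00794). For Actb the means were 0.857 and 0.906, with an exact permutation p of 0.77, and both p-values were 0.77 after adjustment over the 2 ratios.

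Srxn1 had the smallest p of all genes tested. It encodes sulfiredoxin, which restores overoxidised peroxiredoxins and is a known NRF2 target. Its signals were 292, 351, 172 and 275 at 10000 ppm, against 164, 167, 159, 189 and 166 at 5000 ppm. Replicate 3 at 10000 ppm fell inside the range of the 5000 ppm group, and the other 3 animals lay above all 5 of it. The 14-day controls, at 68.8 to 95.1, lay below every animal of both permethrin groups. The signal was 1.56-fold higher at 10000 ppm, a log2 difference of 0.64 (SE 0.15, 95% interval 0.34 to 0.95, unadjusted p = 0.000115, limma adjusted p = 0.849). After 7 days, in other animals, the difference was 0.74 (SE 0.14, unadjusted p = 6.42e-06, limma adjusted p = 0.0836). The difference between the 14-day and the 7-day value was -0.10 (SE 0.20, unadjusted p = 0.641). Without replicate 3 at 10000 ppm the 14-day difference was 0.85 and passed (limma adjusted p = 0.00708). In the fit without arrays of high Gapdh ratio it was 0.90 (limma adjusted p = 0.00648). Besides the 3 arrays of these doses, that fit left out 14-day control replicates 4 and 5 and 14-day isoniazid replicates 3 and 5. Their removal changes the estimate of spread and the p-value but not the difference. The other 3 probe sets of Srxn1 gave differences between 0.17 and 0.56.

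Promoters are shown for 3 genes of the thioredoxin and glutathione systems that had an unadjusted p under 0.05 with a higher signal at 10000 ppm and whose window holds a match, and for Cyp1a1, the lowest member of the P450 list. Each line holds the 250 bases before the annotated start, 5′ to 3′ on the plus strand, from RefSeq for build GRCm38.p6. Capitals mark matches on either strand to TGACNNNGC, the core of the antioxidant response element, or to TGANTCAGC, a form bound by NRF2 with small MAF proteins. Some sequences meet both motifs. In Cyp1a1 they mark GCGTG, the core of the element bound by the aryl hydrocarbon receptor.
Srxn1: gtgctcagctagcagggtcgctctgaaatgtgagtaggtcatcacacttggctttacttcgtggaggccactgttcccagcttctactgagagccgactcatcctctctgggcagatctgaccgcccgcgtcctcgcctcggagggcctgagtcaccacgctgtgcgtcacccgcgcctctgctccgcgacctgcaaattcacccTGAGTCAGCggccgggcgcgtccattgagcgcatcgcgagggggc
Gclm: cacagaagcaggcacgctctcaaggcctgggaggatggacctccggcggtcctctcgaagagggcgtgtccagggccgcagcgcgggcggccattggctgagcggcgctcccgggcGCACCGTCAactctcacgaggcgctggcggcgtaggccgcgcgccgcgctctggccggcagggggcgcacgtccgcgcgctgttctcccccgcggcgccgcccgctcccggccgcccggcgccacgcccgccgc
Txnrd1: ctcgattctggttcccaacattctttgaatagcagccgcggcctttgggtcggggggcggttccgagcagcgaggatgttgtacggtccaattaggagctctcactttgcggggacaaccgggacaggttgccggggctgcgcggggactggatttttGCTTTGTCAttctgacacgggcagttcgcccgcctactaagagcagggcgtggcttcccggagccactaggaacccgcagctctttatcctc
Cyp1a1: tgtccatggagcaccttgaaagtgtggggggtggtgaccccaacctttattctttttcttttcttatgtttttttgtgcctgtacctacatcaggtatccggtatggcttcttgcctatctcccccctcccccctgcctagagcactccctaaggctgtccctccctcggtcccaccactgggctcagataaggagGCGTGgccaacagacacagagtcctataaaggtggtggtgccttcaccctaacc
The Srxn1 window is chr2:152105274-152105523, and its match to TGANTCAGC begins 45 bases before the start. The Gclm window is chr3:122245307-122245556, with a match to TGACNNNGC on the minus strand 134 bases before the start. The Txnrd1 window is chr10:82858956-82859205, with such a match on the minus strand 92 bases before the start, and the only window with a match among the 3 listed for that gene. The Cyp1a1 window is chr9:57697363-57697612, with its match 54 bases before the start. Of 32851 windows of this length, 3531 (10.7%) held a match to either NRF2 motif and 9250 (28.2%) held GCGTG. Counted by gene, with any window of a gene, the shares were 12.2% and 30.9% of 27025 genes. Among the 31 genes called against control at 7 days, described below, 25 had a window and 8 of them held an NRF2 motif: Acox2, Fetub, Gclm, Mgst1, Osgin1, Pir, Srxn1 and Txnrd1. GCGTG was in 15 of the 25.

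Txnrd1 and the glutathione synthesis genes Gclm and Gss had an unadjusted p under 0.05, with overlap between single animals. Txnrd1, which encodes cytosolic thioredoxin reductase, had signals of 993, 1223, 612 and 1035 at 10000 ppm, against 901, 757, 655, 808 and 585 at 5000 ppm. Replicate 3 at 10000 ppm lay below 4 of the 5 animals on 5000 ppm, and the other 3 lay above all 5. The log2 difference was 0.35 (SE 0.15, 95% interval 0.06 to 0.65, unadjusted p = 0.0198). The 1 other probe set of Txnrd1 past the filter gave a difference of -0.002. Gclm, the modifier subunit of the enzyme that sets the pace of glutathione synthesis, had 650.1, 735, 527 and 626 at 10000 ppm, against 497, 481, 327, 590.1 and 572 at 5000 ppm. Its difference was 0.38 (SE 0.17, unadjusted p = 0.0339), and 0.22 with its 1 other probe set past the filter. Gss, which completes glutathione synthesis, differed by 0.38 (SE 0.17, unadjusted p = 0.0289). Gclc, the catalytic partner of Gclm, differed by 0.19, with an interval of -0.37 to 0.75, and by 0.41 with its 1 other probe set. Without the arrays of high Gapdh ratio the difference of Gclc was 0.66. Its 5000 ppm animals split into 725 to 879 for replicates 1 to 3 and 1756 and 1885 for replicates 5 and 4, and the 4 animals on 10000 ppm lay between, at 1194 to 1439.

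Aldh3a1, Blvrb and Gsta2 were, with Srxn1, the 4 members of the NRF2 list with the largest differences. Aldh3a1, an aldehyde dehydrogenase, had signals of 812, 1033, 356 and 544 at 10000 ppm, against 427, 466, 269, 417 and 295 at 5000 ppm. Its log2 difference was 0.79 (SE 0.30, 95% interval 0.18 to 1.41, unadjusted p = 0.0129). Of the 4 animals on 10000 ppm, 3 lay above every animal on 5000 ppm. Blvrb, which reduces biliverdin and flavins, had 301, 408, 229.6 and 287 at 10000 ppm, against 213, 223, 181, 189 and 126 at 5000 ppm. These groups did not overlap, and the difference was 0.71 (SE 0.25, 95% interval 0.21 to 1.22, unadjusted p = 0.00692). The mean signal of the erythroid gene list, given below, did not overlap between the doses either, and its part in the Blvrb value was not tested. Gsta2, a glutathione S-transferase that joins glutathione to electrophiles, had 880.2, 1007, 564 and 767 at 10000 ppm, against 525, 532, 483, 651 and 439.9 at 5000 ppm. Only replicate 3 at 10000 ppm lay inside the 5000 ppm range, and the difference was 0.59 (SE 0.23, unadjusted p = 0.0124). The transferase Gstm1 differed by 0.29 (SE 0.10, unadjusted p = 0.00676), and the carbonyl reductase Cbr3 by 0.37 (SE 0.18, unadjusted p = 0.0477). Abcc3, a pump that exports conjugates, differed by 0.27 (SE 0.12, unadjusted p = 0.0278).

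**Figure D1:**
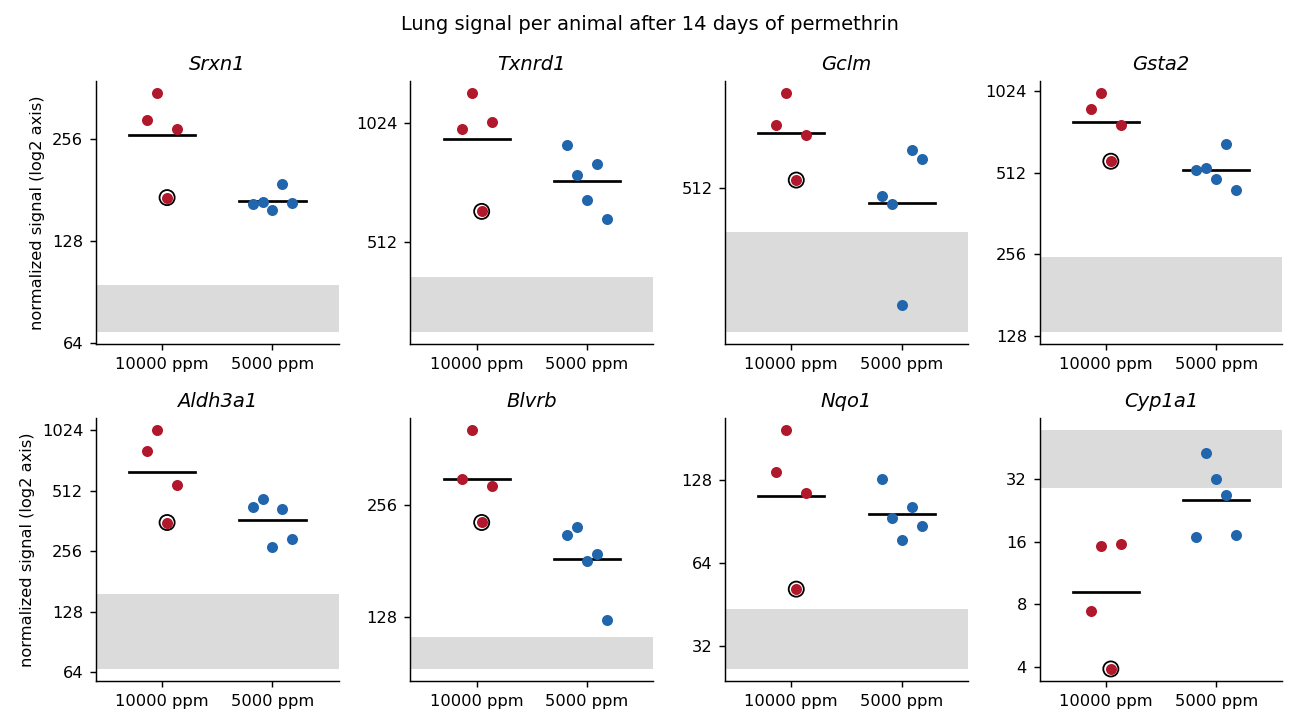
Normalized signal (log2 axis) of 8 genes per animal after 14 days, 10000 ppm left and 5000 ppm right of each panel. Points are animals, black lines are means of log2 signal, the grey band spans the 5 controls, and the ring marks replicate 3 at 10000 ppm, the lowest of its group in all 8 panels.

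For other well-known members of the response the interval included zero and the value moved with the animals used. Nqo1, a quinone reductase and standard NRF2 target, had signals of 137, 194, 51.5 and 115 at 10000 ppm, against 129, 93.0, 77.5, 102 and 87.4 at 5000 ppm. The 5000 ppm range lay inside the 10000 ppm range, and the log2 difference was 0.22 (SE 0.24, 95% interval -0.28 to 0.71). Ces1g, a carboxylesterase, differed by 0.14 (SE 0.30, 95% interval -0.47 to 0.75). Means of log2 signal correspond to 212 at 10000 ppm and 193 at 5000 ppm for Ces1g, and 45.3 in controls. The glutathione peroxidase Gpx2 differed by 0.18 (95% interval -0.32 to 0.68), the epoxide hydrolase Ephx1 by 0.12 (-0.11 to 0.35) and the haem oxygenase Hmox1 by 0.15 (-0.19 to 0.50). These intervals include no difference and also a difference the size of that of Txnrd1, except that the interval of Ephx1 ends just below it. Without the arrays of high Gapdh ratio the differences were 0.57 for Nqo1, 0.62 for Ces1g, 0.48 for Gpx2, 0.21 for Ephx1 and 0.29 for Hmox1, and 0.50 for Txnrd1. Without replicate 2 at 10000 ppm they were -0.05 for Nqo1, 0.09 for Ces1g, -0.04 for Gpx2, 0.05 for Ephx1 and -0.08 for Hmox1, and 0.23 for Txnrd1. Nfe2l2, which encodes NRF2, differed by -0.02 (95% interval -0.19 to 0.15). Its inhibitor Keap1 differed by 0.25 (-0.04 to 0.55), and by 0.36 without the arrays of high ratio.

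The genes called against control at 7 days give a set chosen in other animals. At 10000 ppm 30 genes were higher (0.23% of 13020) and 1 lower (0.00768%) than control, and at 5000 ppm 12 were higher (0.0922%), all among the 30, and 0 lower, with shared controls. At 14 days all 31 genes had a dose difference above zero, whereas 7192 of all genes (55.2%) did. The median over the 31 genes was 0.22, against 0.02 over all genes. Of the 31, 10 (32.3%) had an unadjusted p under 0.05, all higher, where 2.43% of all genes were so. Only Blvrb and Fetub had groups without overlap, 2 of 31 (6.45%), against 0.699% of all genes in that direction. Fetub encodes the plasma protease inhibitor fetuin-B, and its signals were 54.6, 59.2, 55.5 and 51.8 at 10000 ppm, against 50.5, 43.6, 33.9, 44.8 and 49.7 at 5000 ppm.

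The 30 genes called higher at 7 days all had 14-day means in the order control, 5000 ppm, 10000 ppm, an order that 2627 of all genes (20.2%) showed. They were chosen for a rise over control, which favours the first step of that order. The share over all genes is thus not a like measure for it. Their mean log2 signal was 8.78 (SD 0.30, n = 4) at 10000 ppm, 8.50 (SD 0.14, n = 5) at 5000 ppm and 7.73 (SD 0.15, n = 5) in controls. The step between the doses was thus smaller than the step between 5000 ppm and control. The smallest differences were in genes of very high signal: Aldh1a1, an aldehyde dehydrogenase of club cells, differed by 0.05 (95% interval -0.07 to 0.17) and the microsomal transferase Mgst1 by 0.10 (-0.01 to 0.21). For 28 of the 31 genes the interval lay within 1 log2 unit of zero, and for 21 it included zero. The genes share arrays, normalization and the estimate of spread, so their count is a description and not 31 independent tests.

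**Figure D2:**
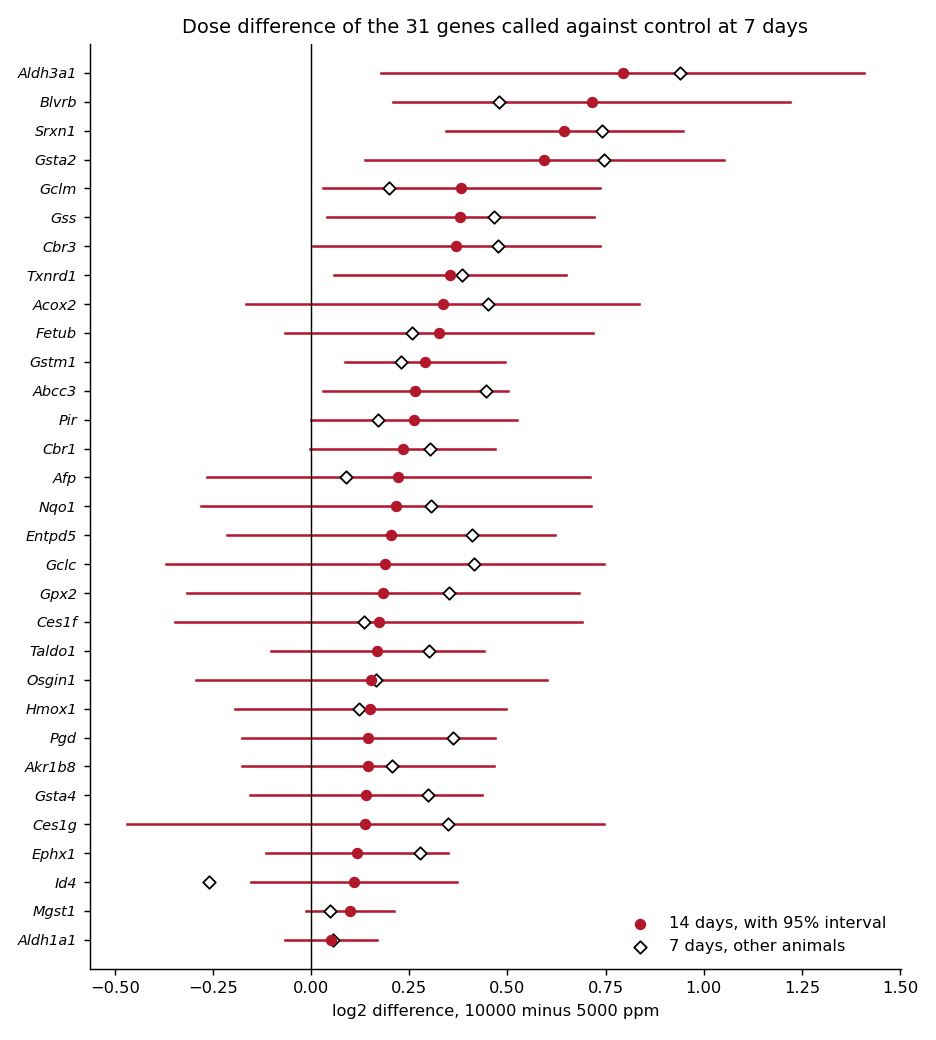
Log2 difference, 10000 minus 5000 ppm, of the 31 genes called against control at 7 days, sorted by the 14-day value. Filled points with 95% intervals are the 14-day animals and open diamonds the 7-day animals. All 31 filled points lie right of zero, between 0.05 (Aldh1a1) and 0.79 (Aldh3a1), and Id4 is the only gene with its diamond left of zero.

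The 14-day differences of the 31 genes followed their 7-day differences. Pearson's r over these genes was 0.777 and Spearman's rho 0.682, against 0.0708 and 0.0439 over all 13020 genes, where genes of a time share arrays and are not independent. At 7 days the same comparison gave 0 genes past the threshold (0%; 269 genes, 2.07%, at an unadjusted p under 0.05). Of the 31 genes, 30 had a difference above zero at both times, against 3919 of all genes (30.1%). The 7-day arrays also chose these 31 genes, which favours a 7-day difference in the direction of the call. Only the 14-day side is separate from that choice, so the share over all genes is not a like measure for both times. The exception was Id4, which blocks DNA binding by basic helix-loop-helix proteins and was the gene called lower at 7 days. Its dose difference was 0.11 (SE 0.13, unadjusted p = 0.404) at 14 days and -0.26 (unadjusted p = 0.0407) at 7 days. An unadjusted p under 0.05 with the same sign at both times was found for 14 genes, and 9 of these, from Srxn1 to Cbr3, were among the 31. The choice at 7 days favours this count too.

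**Figure D3:**
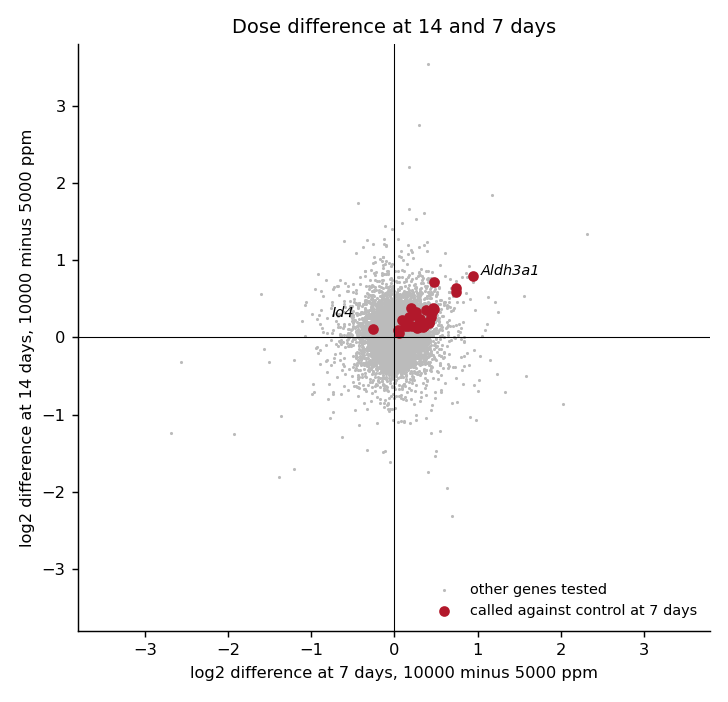
Log2 difference, 10000 minus 5000 ppm, at 14 days (vertical) against 7 days (horizontal) for all 13020 genes. Red points are the 31 genes called against control at 7 days, which lie along a rising line above zero, while the grey points of the other genes form a cloud around the origin.

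Animals on 10000 ppm differed among themselves in these genes. Replicates 1, 2, 3 and 4 had 29, 30, 12 and 24 of the 30 genes above the 5000 ppm mean. Above the highest 5000 ppm animal they had 19, 27, 6 and 13. Replicate 2 was the highest of its group for 25 genes, and replicate 3 the lowest for 23. Replicate 3 was still above the highest control for 25 of the 30. That animal had the Gapdh ratio of 1.26 and the highest neutrophil marker signal of the 9, and replicate 2 the highest cardiac signal, as given below.

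Leaving out replicate 2 lowered the median over the 30 genes to 0.128, against 0.219 with all animals, and left 25 of 30 above zero. Leaving out replicate 3 raised it to 0.338. Without the 3 arrays of high Gapdh ratio it was 0.427, with 30 of 30 above zero. At 5000 ppm, the arrays of high ratio, replicates 4 and 5, had mean log2 signals of 8.67 and 8.45 over these genes. They lay inside or above the 8.31 to 8.61 of the other 3.

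**Figure D4:**
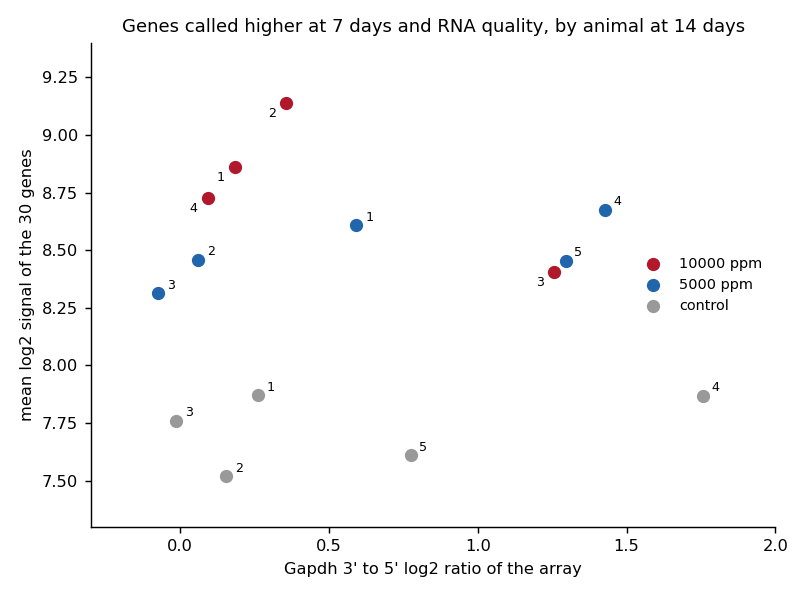
Mean log2 signal of the 30 genes called higher at 7 days (vertical) against the log2 3' to 5' ratio of Gapdh (horizontal), 1 point per animal at 14 days, labelled by replicate number. Replicates 1, 2 and 4 at 10000 ppm lie above all 5000 ppm animals, replicate 3 lies among them at a ratio of 1.26, and all controls lie below 7.9.

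Over the list of NRF2 and glutathione genes, 39 of 42 members tested had differences above zero, with a median of 0.18, against 55.2% and 0.02 over all genes. At 7 days 38 of the 42 did, with a median of 0.20. Of the 42, 23 are among the 31 genes above. The other 19 had a median of 0.12, with 16 above zero. The list was written with earlier results of these data known, so these values are a description. Without replicate 2 at 10000 ppm the list's median was 0.0879, with 30 of 42 above zero. Without replicate 3 it was 0.271, and without the arrays of high Gapdh ratio 0.3. The lowest member was Mafg at -0.25, a small MAF partner of NRF2.

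The lists of glutathione S-transferases and of glutathione synthesis and recycling share members with the NRF2 list and also lay mostly above zero. Other metabolic lists split more evenly. Of 19 glutathione S-transferases, 15 lay above zero, with a median of 0.25. The theta class went both ways. Gstt3 had signals of 337, 401, 178 and 262 at 10000 ppm, against 201, 145, 252, 143 and 116 at 5000 ppm, a difference of 0.77 (SE 0.27, unadjusted p = 0.00676). Gstt1 had 436, 249, 469 and 226 at 10000 ppm, against 600.2, 633, 431, 679 and 414 at 5000 ppm, a difference of -0.72 (SE 0.29, unadjusted p = 0.0181). Both pairs of groups overlapped. Of the glutathione synthesis and recycling genes 14 of 16 lay above zero (median 0.15), among them the glutaredoxin Glrx at 0.44 (SE 0.14, unadjusted p = 0.0041). For the thioredoxin and peroxiredoxin list the count was 9 of 14 (median 0.04), with Txnrd2 at -0.41 and Sesn2 at -0.56 opposite to Txnrd1 and Srxn1. The count was 13 of 19 for quinone, carbonyl and aldo-keto reductases (0.08), 10 of 17 for aldehyde dehydrogenases (0.04), and 6 of 11 for carboxylesterases (0.01).

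Of 25 genes in the P450 list, 18 lay above zero, with a median of 0.07. Cyp1a1, which oxidises planar aromatic compounds and is the classic target of the aryl hydrocarbon receptor, stood lowest of it. Its signals were 7.42, 15.2, 3.91 and 15.7 at 10000 ppm, against 16.9, 42.9, 32.0, 26.8 and 17.3 at 5000 ppm, and 28.9 to 55.2 in controls. No animal on 10000 ppm reached the lowest on 5000 ppm, and the signals at 10000 ppm lie close to the filter at a mean of 10.8. The log2 difference was -1.48 (SE 0.39, 95% interval -2.28 to -0.68, unadjusted p = 0.000584, limma adjusted p = 0.994). At 7 days it was -0.14 (unadjusted p = 0.711). Of the other 9 members of the aryl hydrocarbon receptor list, 6 lay above zero, with a median of 0.12, and with Cyp1a1 the median was 0.07.

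Cyp2b10, the standard target of the receptor CAR, had signals of 1932 to 2237 at 10000 ppm and 1840 to 2326 at 5000 ppm, and a difference of 0.07 (95% interval -0.12 to 0.27). Of the CAR and PXR targets 14 of 19 were above zero (median 0.09), including the shared NRF2 gene Gsta2. Cyp2f2, the main P450 of club cells, differed by -0.02 (95% interval -0.14 to 0.09). Scgb1a1, the club cell secretory protein, sat at the top of the scale, 9304, on all 9 arrays, so no dose difference could be measured for it. The surfactant gene Sftpc differed by 0.00 (95% interval -0.14 to 0.13).

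The genes of smallest p came from many families. Higher at 10000 ppm after Srxn1 were Cyp2d13, Wdr83, Ttc36, Kyat3, Gata1, Rhbdd3, Pgm2, Rundc3b and Asf1a, with differences between 0.44 and 1.27 and unadjusted p-values of 0.000252 to 0.00243. Kyat3, a kynurenine aminotransferase, had signals of 82.8, 113, 78.2 and 86.0 at 10000 ppm, against 47.9, 56.1, 75.9, 54.8 and 66.2 at 5000 ppm, without overlap. Cyp2d13, a P450 gene outside the list above, was dim, at 11.6 to 21.8 at 10000 ppm against 2.44 to 10.4 at 5000 ppm. Rhbdd3 had 68.7 to 80.1 at 10000 ppm, against 51.9, 8.59, 74.4, 15.1 and 66.7 at 5000 ppm, so its difference rested on 2 low animals, and its other 2 probe sets gave -0.24 and 0.12. For Asf1a the other probe set gave -0.39, opposite in sign. In 14-day controls the mean of Wdr83 was 56.4, against 61.0 at 10000 ppm and 36.6 at 5000 ppm. In the same order, Rhbdd3 had 66.7, 73.4 and 32.0, and Rundc3b 23.3, 22.7 and 13.9, so that 5000 ppm was the group apart. Controls of Ttc36 and Kyat3, at 42.9 and 62.9, instead lay near the 39.4 and 59.4 at 5000 ppm.

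Lower at 10000 ppm were Matn4, 4632415L05Rik, Thsd4, Cyp1a1, Nol6, Met, Prkab2, Tmem198, Dbnl and Med1, with differences between -1.61 and -0.32 and unadjusted p-values of 0.000237 to 0.00397. Matn4, a matrix protein of the matrilin family, had signals of 212, 209.5, 132 and 284 at 10000 ppm, against 269, 306, 287, 358 and 400.0 at 5000 ppm. Only replicate 4 at 10000 ppm lay inside the 5000 ppm range. The difference of Matn4 was -0.67 (SE 0.16), and -0.30 without the arrays of high Gapdh ratio. Met, the receptor of hepatocyte growth factor, had 294, 258, 282 and 239.5 at 10000 ppm, against 322, 327, 317, 354 and 357 at 5000 ppm, a difference of -0.32 (SE 0.10) without overlap. For Nol6 the other probe set gave 0.43, opposite in sign, and for Med1 the other 3 ran from -0.95 to 0.24. Other probe sets of 4632415L05Rik and Prkab2 were also below zero. In 14-day controls the mean of Met was 283, nearer the 268 at 10000 ppm than the 335 at 5000 ppm. For Prkab2 the control mean was 101, nearer the 103 at 5000 ppm than the 73.5 at 10000 ppm. At 7 days 2 of the 10 genes higher at 14 days were also above zero, and 4 of the 10 genes lower at 14 days were also below zero. Of these 20 genes only Srxn1 had an unadjusted p under 0.05 at 7 days.

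A direct test of whether the dose difference changed between 7 and 14 days gave 0 of 13020 genes past the threshold (0%; 341 genes, 2.62%, at an unadjusted p under 0.05; limma). The smallest p-values were those of Ube3b, Thsd4, Wdr83, Fmod and Matn4, all with an unadjusted p of 0.00104 to 0.00174 and an adjusted p of 0.999. Fmod, a collagen-binding proteoglycan, had a 14-day difference of -0.47 and a 7-day difference of 1.23. Among the 31 genes called at 7 days only Id4 had an unadjusted p under 0.05 in this test, at 0.0457 by limma.

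Heat shock genes mostly lay below zero. Of 18 tested, 1 lay above it (55.2% of all genes did), the small heat shock protein Hspb8 at 0.28, and the median was -0.29. It was -0.35 without the arrays of high Gapdh ratio and -0.10 at 7 days. No member had an unadjusted p under 0.05, the co-chaperone Fkbp4 being lowest (-0.39, SE 0.20, unadjusted p = 0.0613). Mean log2 signals of the list overlapped, at 9.45 to 10.04 at 10000 ppm and 9.65 to 10.55 at 5000 ppm. The group means were 9.73 and 10.02, and 9.78 in 14-day controls (9.31 to 10.17), so that 10000 ppm lay near control. Of 24 unfolded protein response genes 6 lay above zero (median -0.12), and of 26 p53 targets 15 (median 0.03). Cell cycle genes were evenly split, with 18 of 35 above zero and a median of 0.03, and the proliferation markers Mki67 and Top2a differed by -0.16 (95% interval -0.71 to 0.39) and 0.04 (-0.43 to 0.51). Of 5 voltage-gated sodium channel genes tested 1 was above zero (median -0.03), and Scn3a had the smallest p (-0.40, SE 0.21, unadjusted p = 0.0641).

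Cell type markers were read in bulk lung, where fewer cells of a type and less RNA per cell cannot be told apart. Ciliated cell markers lay above zero in 7 of 29 (median -0.14), with Cfap52 at -0.57 (SE 0.25, unadjusted p = 0.0273) and Spag6l at -0.41 (SE 0.20, unadjusted p = 0.0469), both parts of the axoneme. Their mean log2 signals per animal overlapped, at 6.27 to 6.95 at 10000 ppm and 6.75 to 7.12 at 5000 ppm. The group means were 6.76 and 6.94, and 6.73 in 14-day controls (6.42 to 6.93), so that 10000 ppm lay near control. Alveolar type 2 markers lay above zero in 3 of 19 (median -0.13), alveolar type 1 markers in 4 of 14 (-0.04), club cell markers in 9 of 24 (-0.10, with Scgb1a1 at zero) and endothelial markers in 12 of 20 (0.06). Of the 29 ciliated markers 2 and of the 20 endothelial markers 1 had an unadjusted p under 0.05 with a lower signal, where 1.35% of all genes did, and none of the alveolar or club cell markers did.

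For neutrophil markers a single animal had the highest signal. All 13 lay above zero (median 0.42), none with an unadjusted p under 0.05. Their mean log2 signals were 7.59, 7.93, 9.07 and 7.2 at 10000 ppm, against 7.62, 7.94, 7.31, 7.49 and 6.98 at 5000 ppm, so that only replicate 3 at 10000 ppm stood apart. For Mmp8, a neutrophil collagenase, the signals were 72.4, 74.1, 397 and 79.9 at 10000 ppm. At 5000 ppm they were 92.7, 113, 67.5, 83.1 and 50.03. Without the arrays of high ratio, which include this animal, the list median was -0.19 with 4 of 13 above zero. Macrophage and monocyte markers had a median of 0.20 over 19 genes and -0.04 without those arrays. Of 15 B and plasma cell markers 9 lay above zero (median 0.01), with Cd79a highest at 0.45 and Igha lowest. The antibody gene Igha had 504 to 732 at 10000 ppm, against 600.3 to 2304 at 5000 ppm, a difference of -1.08 (SE 0.48, unadjusted p = 0.0305).

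The mean signal of the erythroid and haemoglobin list lay higher in all animals on 10000 ppm than in any on 5000 ppm. Their mean log2 signals over 7 genes were 7.58, 7.79, 7.61 and 7.78 at 10000 ppm, against 7.15, 7.18, 7.36, 7.16 and 7.32 at 5000 ppm, and 6.78 to 7.57 in controls. The 2 permethrin groups did not overlap. In this list 6 of 7 genes lay above zero (median 0.45), and 1 of 7 did at 7 days (median -0.18). Gata1, the erythroid transcription factor, had 31.9, 22.9, 23.4 and 30.3 at 10000 ppm, against 15.4, 10.01, 16.6, 9.24 and 20.9 at 5000 ppm, a difference of 0.96 (SE 0.28, unadjusted p = 0.0017). The haemoglobin gene Hbb-b2, at 448 to 688 against 153 to 445, did not overlap either, with a model interval of -0.77 to 2.45. These were the only 2 of the 7 genes without overlap, where 0.699% of all genes were so in that direction. Tfrc differed by 0.05 and Car2 by -0.03. Gata1 was dim at 5000 ppm, close to the filter at a mean signal of 10.8. Its 14-day controls, at 16.8 to 27.0, overlapped both doses.

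Liver, heart and fat genes, whose tissues can be taken with lung, overlapped between the doses in mean signal. Liver genes lay above zero in 22 of 24 (median 0.34; -0.30 at 7 days), with mean log2 signals of 5.07 to 6.4 at 10000 ppm and 4.95 to 6.21 at 5000 ppm. Cardiac muscle genes lay above zero in 21 of 32 (median 0.06), at 8.08, 8.63, 6.98 and 6.39 at 10000 ppm and 7.52, 7.43, 8.04, 7.10 and 7.14 at 5000 ppm. Brown fat and adipocyte genes lay above zero in 14 of 18 (median 0.19), with Elovl3, an enzyme of fatty acid elongation, at 1.17 (SE 0.47, unadjusted p = 0.0176). Their mean log2 signals were 5.67 to 8.47 at 10000 ppm and 6.49 to 7.28 at 5000 ppm. The list of oesophagus, thymus and lymph node genes had 4 members tested, all above zero (median 0.22), with mean log2 signals of 5.36 to 5.62 at 10000 ppm and 5.01 to 5.4 at 5000 ppm, which overlapped. With cardiac and liver signal as covariates the median over the 30 genes called higher at 7 days was 0.229, and 30 of 30 stayed above zero.

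**Figure D5:**
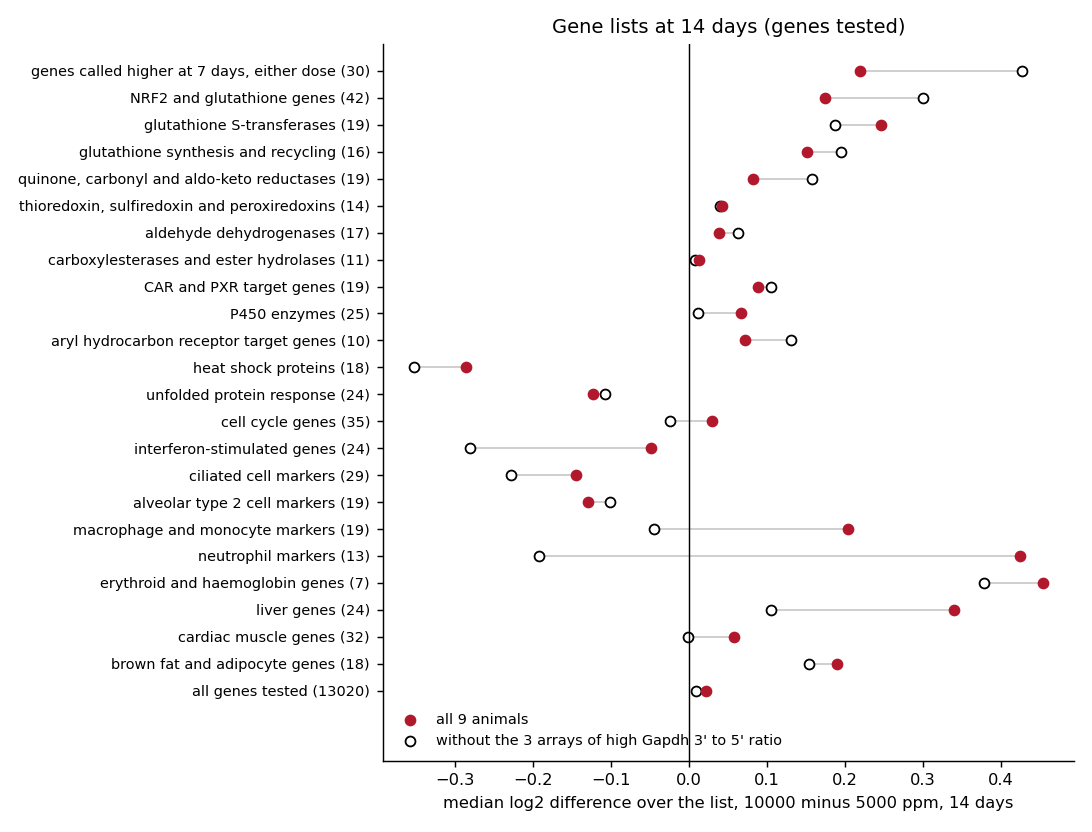
Median log2 difference, 10000 minus 5000 ppm at 14 days, over the tested members of 23 gene lists and all genes (number in brackets). Filled points use all 9 animals and open points leave out the 3 arrays with a Gapdh ratio above 0.7. The NRF2 list and the genes called higher at 7 days stay right of zero in both, whereas neutrophil markers move to -0.19 from 0.42.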

How the data were processed

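The authors deposited linear signal intensity per probe set and array, and the submitters' processing notes name MAS5 (version not given in the sources used here). Labelled RNA copies were hybridized to Affymetrix arrays per the labels' protocols. Deposited trimmed means were 100 on every array and medians 17.4 to 26.2. Background subtraction and probe summary could not be varied. The log2 of the deposited intensity was quantile normalized over 39 arrays with no pseudocount. Shifts shared by most genes are lost this way, and a gene at the ceiling has no measurable difference. Of 45101 probe sets, 34945 carry 1 symbol, 932 several, 9160 none and 64 are controls. Each gene took its probe set of highest mean, and genes with a mean in the upper 60% (signal of at least 10.8) were tested, 13020 of 18193.

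A linear model of 8 group means was fitted with limma 3.58.1 (R 4.3.3; empirical Bayes with trend). P-values are two-sided and Benjamini-Hochberg adjusted over all genes tested. Replicate numbers were not used as a block. The 3' to 5' ratios had exact permutation tests. The steps were tested on simulated data. Members, gene lists and tests were chosen with earlier results of these data known.

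Named genes are the 10 smallest p-values in each direction, a fixed list of 28, the genes called at 7 days, up to 4 per list by smallest p, and the 5 smallest p-values of the time comparison. Not all are printed, and Fetub, Mafg and the list members at the extremes of their lists are among those singled out after their values were seen. For arrays, their number limits the precision.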

Additional observations from a re-analysis of the deposited data

Results flagged for a closer look

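In 7 of 164 groups of 4 or 5 animals examined, 1 animal stood apart from the others by more than Dixon's 95% limit, where chance gives about 1 in 20. The count is thus not above that rate, and the groups share animals. In all 3 cases at 10000 ppm the animal was replicate 3. It had a Gstm1 signal of 2124, against 2968 to 3168 in the other 3, an Fmod signal of 46.5, against 112 to 134, and an Mmp8 signal of 397, against 72.4 to 79.9. The same array had a Gapdh 3' to 5' log2 ratio of 1.26, whose part in these values was not tested. At 5000 ppm replicate 3 had the lowest Cbr3 signal (285, others 404 to 449) and the highest Mgst1 signal (4929, others 4739 to 4768). Replicate 5 had the lowest Gsta4 signal (860.3, others 963 to 994), and replicate 1 the lowest Cyp2d13 signal (2.44, others 7.19 to 10.4).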

How the results depend on the processing

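The comparison of 10000 with 5000 ppm at 14 days gave 0 genes past the threshold under 11 of 13 settings other than leaving out 1 animal, and 1, Srxn1, both with array weights (limma adjusted p = 0.0405) and without the high-ratio arrays. With 1 animal left out at a time the count ran from 0 to 1, the 1 being Srxn1 without replicate 3 at 10000 ppm. The adjusted p of Srxn1 ran from 0.00648 to 1 over 22 settings. At 7 days array weights gave 3 genes (Srxn1, Shh and Zfp994), and leaving out 1 animal gave 0 to 1. Leaving out the arrays of high ratio, all from 14 days, gave 1 (Srxn1) at 7 days. The test of a change between times gave 0 under every setting run. With the replicate block the count at 14 days was 0 and the median over the 30 genes called higher at 7 days 0.239. Deviations from the group mean had correlations of 0.03, 0.11, -0.27 and -0.10 between same-numbered animals of both doses. So few values cannot settle whether the numbers mark a pairing or a batch. Over all settings that median ran from 0.128 to 0.427. Of 75 genes followed, 11 changed sign in some setting: Nqo1, Gpx2, Hmox1, Nfe2l2, Cyp2f2, Fmod, Sftpc, Top2a, Stfa2l1, Mmp8 and Scn7a. The number of genes with an unadjusted p under 0.05 was 493, and 273 with arrays centred on their medians, 341 when the fit held just the permethrin animals, 292 when it held just the 14-day animals, 813 without a filter, 854 over every probe set, and 318 to 728 with 1 animal left out, 318 being without replicate 5 at 5000 ppm. The median of all genes ran from 0.00547 to 0.0658. Why single settings differed was not tested. The number of animals and the dim signal of Cyp1a1, Cyp2d13, Gata1 and Tmem198 limit the precision.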

Other observations

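Besides 9 of the 31 genes called at 7 days, 5 genes had an unadjusted p under 0.05 and the same sign in both dose comparisons. Ghrl, which encodes the hormone ghrelin, differed by 0.79 at 14 days and 0.60 at 7 days. Tatdn1 differed by 0.55 and 0.51, and Sec24b, a coat protein of transport vesicles, by 0.28 at both times. Hs3st2, a heparan sulfate sulfotransferase, differed by -1.70 and -1.21, and Fam207a by -0.51 and -0.43. They were chosen after their values were seen, and none passed adjustment. Of the 493 genes with an unadjusted p under 0.05 at 14 days, 274 (55.6%) had the same sign at 7 days, against 51.5% of all genes tested.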
